A study of Mus musculus with 6 samples.

Results

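The forkhead (Fox) genes encode transcription factors that share the forkhead domain, and 35 of them were found among the 16891 genes on a mouse promoter array hybridised with chromatin recovered by SMAD antibodies. Members were chosen by name: a probe belonged to a Fox gene if its annotated gene name, or 1 of the 2 names joined at a divergent promoter, was Fox with a subfamily letter and a number. Foxa2, Foxh1 and the Foxred genes were left out by that rule. The 35 genes cover 16 subfamilies on 14 chromosomes and carry 1330 of the 474380 probes, with 23 to 55 probes per gene. Of these probes 775 lie in promoters, 66 in divergent promoters, 436 inside genes and 53 downstream. The array annotation calls Foxf1 by the older name Foxf1a and Foxo3 by Foxo3a, and those names are kept here.

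Forkhead proteins bind DNA through a winged-helix fold, and several of them can open closed chromatin for other factors. The FoxO proteins are held out of the nucleus when insulin or growth factor signalling phosphorylates them, while FoxA proteins act early in endoderm. SMAD proteins carry TGF-beta family signals to the nucleus, SMAD1 and SMAD5 for BMP and SMAD2 for Activin, Nodal and TGF-beta, with SMAD4 as the shared partner, and they bind DNA together with other factors, forkhead proteins among them.

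Chromatin came from R1, an embryonic stem cell line of the mouse, undifferentiated and kept without feeders in medium with knockout serum replacement and leukemia inhibitory factor and given no other treatment. The groups are SMAD1/5, SMAD2 and SMAD4 immunoprecipitates, made with antibodies raised against linker fragments of the human proteins, each set against whole cell extract DNA of its own preparation as input. The labels of the SMAD2 arrays conflict: title and sample type name SMAD2, but the text of the extraction protocol names the Smad1/5 antibody, so the antibody used there rests on the title. Each antibody has 1 biological replicate on 2 arrays, which hold different probes of 1 promoter set, so nothing below was repeated in a second experiment, and no test was run.

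The unit throughout is the log2 ratio of immunoprecipitate (Cy5) over input (Cy3), centred on the median of each array. A window is the mean of at least 3 probes within 500 bp, and its z is the distance from the array's median window in robust SD. That SD was taken from the windows below the median alone, so the lower side sets the scale for high windows too. Enriched windows have a z of 4 or more and low windows a z of -4 or less, in both cases with at least 2 single probes past the array's 95th percentile, or for low windows past the mirrored one. Errors are SDs over probes or genes, except for the bars of 1 figure, which are SEs over probes. None of them measures the spread between experiments. A z of 4 corresponds to a log2 ratio of 4.61 and 4.17 on the SMAD1/5 arrays. With SMAD2 it corresponds to 2.29 and 2.23, and with SMAD4 to 2.30 and 2.29, so the SMAD1/5 arrays could show only very high ratios. Among Fox probes the input was well above background for 82.3% with SMAD1/5, 87.9% with SMAD2 and 99.6% with SMAD4. The SMAD4 arrays were extracted with another software version and protocol than the others, which cannot be told apart from the antibody, and without a dye swap a dye effect cannot be told apart from enrichment. The arrays measure DNA, so no marker level could check the cell type. Of 8 known SMAD target genes, Id1 and Nodal among them, 0 had a window at a z of 4, and their highest peak z was 1.80, 2.15 and 2.46 with SMAD1/5, SMAD2 and SMAD4. Lefty2, 1 of these genes, had lowest windows at a z of -4.47 with SMAD2 (-2.50 ± 0.84, 4 probes) and -5.05 with SMAD4 (-2.74 ± 0.28, 5 probes).

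Promoter sequences of the 300 bases from 250 before to 50 after a start were taken from RefSeq (GRCm38.p6), which matched 22 of the 35 genes with 25 promoters. That is under 80% of the genes, so a comparison of base composition over the family is void. The first pair below shows how far the promoters differ: Foxj3 has the most CG dinucleotides, 42, and Foxi2 the fewest, 5, among members with a single listed start. CG is in capitals, and sequences run 5′ to 3′ on the strand of the gene. Foxj3 lies at chr4:119539411-119539710 (plus strand) and Foxi2 at chr7:135410117-135410416 (plus strand).
Foxj3: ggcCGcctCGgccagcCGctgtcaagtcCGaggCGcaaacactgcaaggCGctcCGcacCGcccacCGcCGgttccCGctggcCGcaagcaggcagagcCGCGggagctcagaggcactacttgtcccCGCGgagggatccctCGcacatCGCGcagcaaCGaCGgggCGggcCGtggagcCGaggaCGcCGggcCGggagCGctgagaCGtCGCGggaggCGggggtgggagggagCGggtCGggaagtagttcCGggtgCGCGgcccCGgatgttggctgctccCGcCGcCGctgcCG
Foxi2: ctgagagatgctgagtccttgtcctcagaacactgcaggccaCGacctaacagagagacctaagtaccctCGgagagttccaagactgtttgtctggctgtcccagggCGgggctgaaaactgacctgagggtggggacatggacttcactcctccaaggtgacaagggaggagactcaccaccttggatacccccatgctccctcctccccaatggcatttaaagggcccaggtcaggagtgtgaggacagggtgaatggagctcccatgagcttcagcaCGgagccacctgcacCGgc

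In the 500 bp on either side of the start, Foxj3 had an input signal of 2.18, 1.36 and 1.08 with SMAD1/5, SMAD2 and SMAD4 (centred log2), and Foxi2 had 2.05, -0.81 and 1.00. The log2 ratio there was -1.41, -0.36 and -0.20 for Foxj3 and -0.84, 0.82 and -0.49 for Foxi2. Neither gene had a positive near-start ratio with more than 1 antibody.

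No Fox gene was enriched with any antibody. The count was 0 of 35 with SMAD1/5, where 0.0% of all genes were called, 0 of 35 with SMAD2, where 0.0664% were, and 0 of 35 with SMAD4, where 2.47% were. Low windows were also found in 0 of 35 with each antibody, against 2.61%, 0.338% and 0.0483% of all genes for SMAD1/5, SMAD2 and SMAD4. For 0 of 35 the exact 95% binomial limit is 10.0%. That limit takes the genes as independent draws, which neighbours such as Foxc2 and Foxl1, with probe sets 3.8 kb apart, may not be. No conclusion is drawn from it, and a count of 0 among 35 genes is not read as a lack. The highest Fox window z was 2.46 with SMAD1/5, 2.86 with SMAD2 and 3.30 with SMAD4, and the lowest was -3.93, -3.91 and -2.85.

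**Figure D1:**
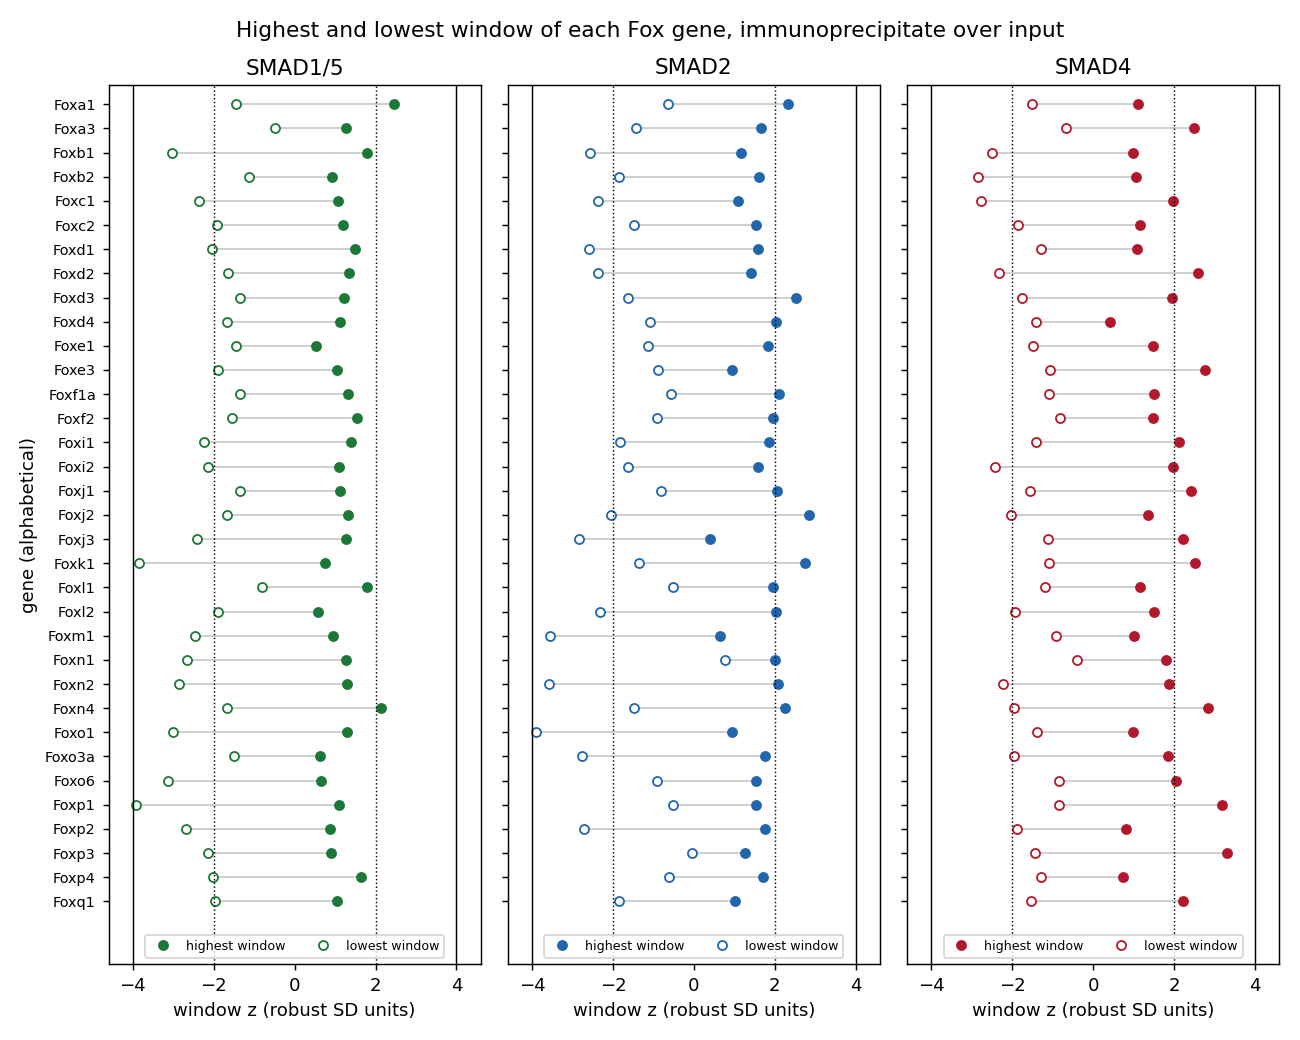
Each row is 1 of 34 Fox genes, filled points are the z of its highest window and open points the z of its lowest, for SMAD1/5, SMAD2 and SMAD4 from left to right. Solid lines mark z of 4 and -4 and dotted lines 2 and -2: no point lies beyond a solid line, and Foxp1 and Foxk1 with SMAD1/5 and Foxo1 with SMAD2 come nearest to -4.

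A lower bar, a highest window z of at least 2, was met by 2 of 35 Fox genes with SMAD1/5 (5.71%, against 5.94% of all genes), by 11 with SMAD2 (31.4%, against 18.4%) and by 13 with SMAD4 (37.1%, against 39.9%). Fox genes were tiled with a median of 38 windows, against 26 for all genes (SMAD4). The part of this difference in the shares per gene was not tested. Counted over single windows, 19 of 1267 Fox windows reached a z of 2 with SMAD2, where 1.67% of all windows did. The count was 4 of 1284 with SMAD1/5 (0.31%, against 0.41%) and 50 of 1284 with SMAD4 (3.89%, against 5.69%). The SMAD2 share per gene was thus above the background and the share per window was not. In the other direction, a lowest window z of at most -2 was found in 16, 13 and 7 Fox genes with SMAD1/5, SMAD2 and SMAD4, against 32.2%, 30.0% and 18.2% of all genes. Of single Fox windows, 42 were at a z of -2 or less with SMAD1/5 (3.27%, against 3.86%), 38 with SMAD2 (3.00%, against 3.54%) and 14 with SMAD4 (1.09%, against 1.75%).

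**Figure D2:**
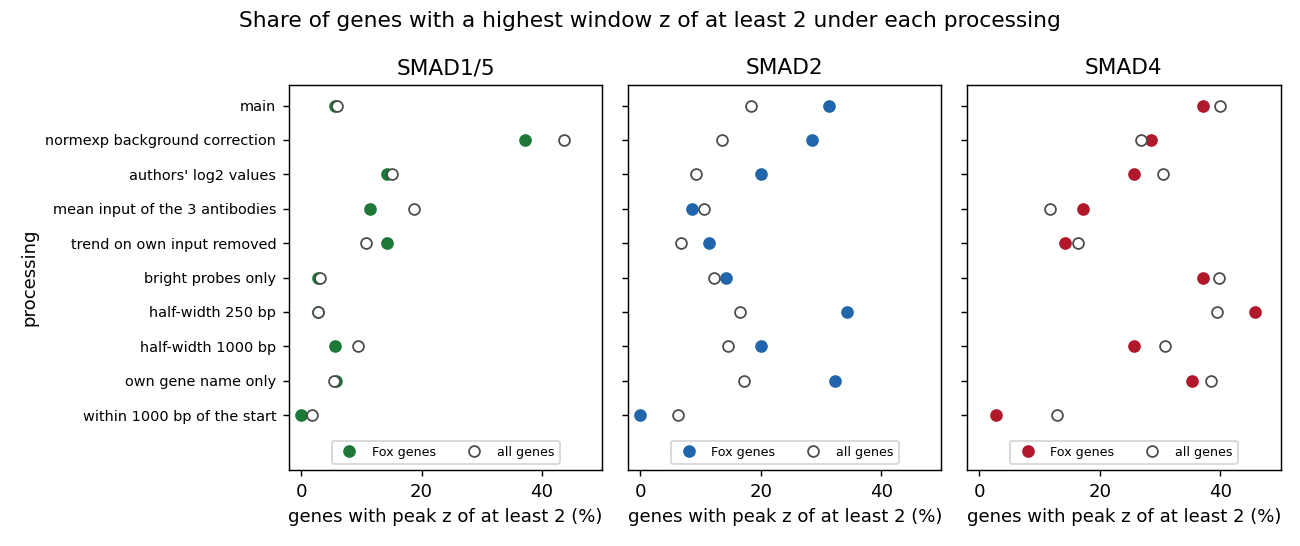
Share of genes (%) whose highest window reached a z of 2, for Fox genes (filled) and all genes (open), under the processing used here (top row) and its alternatives, with SMAD1/5, SMAD2 and SMAD4. The SMAD2 share of Fox genes lies above that of all genes under most settings, at 31.4% against 18.4% in the top row, but below it with the mean input of the 3 antibodies, at 8.57% against 10.7%, and near the start, at 0.0% against 6.21%.

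The FoxA genes were the subfamily whose mean ratio was positive in both members with all 3 antibodies. Foxa1, a factor that opens chromatin in endoderm, averaged 0.28 ± 1.43 with SMAD1/5, 0.10 ± 0.65 with SMAD2 and 0.12 ± 0.86 with SMAD4 (SD over 44 probes). Its relative Foxa3, active in liver, averaged 0.14 ± 1.97, 0.17 ± 0.85 and 0.38 ± 0.97 (SD over 36 probes). Each of these means is far smaller than the SD of its probes.

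Foxa1 held the highest SMAD1/5 window of the family. This window lies inside the gene at 1277 bp past the start, chr12:55479443-55480367 in the annotation's coordinates (genome build not given in the sources used here). Its log2 ratio was 2.53 ± 0.89 with SMAD1/5 (5 probes, z 2.46), 0.36 ± 0.62 with SMAD2 and -0.01 ± 1.19 with SMAD4. The SMAD1/5 immunoprecipitate there was 1.24 above the mean of the other antibodies' immunoprecipitates and its input 0.69 below theirs (centred log2). Foxa1 also had a SMAD2 window at -3958 bp with a ratio of 1.31 ± 0.20 (z 2.33), where the SMAD4 ratio was -0.52 ± 0.82. The 2 windows lie on opposite sides of the start.

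The Foxa1 promoter holds the forkhead motif GTAAACA, searched on both strands and found in 3.65% of 32851 promoters, and is shown with that motif in capitals. A match describes the letters in this stretch alone. It lies at chr12:57546062-57546361 (minus strand) in GRCm38.p6.
Foxa1: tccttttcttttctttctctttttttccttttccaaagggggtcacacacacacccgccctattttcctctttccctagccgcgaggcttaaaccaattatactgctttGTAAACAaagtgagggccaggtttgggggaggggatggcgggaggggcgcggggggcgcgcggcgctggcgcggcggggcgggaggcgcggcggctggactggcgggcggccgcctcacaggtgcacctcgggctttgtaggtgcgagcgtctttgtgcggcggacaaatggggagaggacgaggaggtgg

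Foxc1 and Foxc2, used in eye, heart and vessel development, averaged -0.73 ± 1.49 and -0.22 ± 1.76 with SMAD1/5. Foxf1a, a gene of lung and gut mesenchyme, averaged 0.03 ± 1.71, 0.25 ± 0.78 and 0.25 ± 0.78 with SMAD1/5, SMAD2 and SMAD4, and its SMAD2 window at 2493 bp reached a z of 2.11. Foxf2 stayed below a z of 2 with each antibody.

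Foxl1, expressed in gut mesenchyme, had the highest SMAD1/5 mean of the family, 0.39 ± 1.90 (36 probes). Its highest window was the same with all 3 antibodies, centred at -1974 bp (chr8:119758643-119759423), with ratios of 1.95 ± 0.95, 1.14 ± 0.74 and 0.73 ± 0.44 for SMAD1/5, SMAD2 and SMAD4, none at a z of 2. Foxl1 and the lens gene Foxe3 were the 2 Fox genes (5.71%) whose highest windows on all 3 arrays lay within 500 bp of each other, against 6.09% of all genes. Foxl1, Foxc2 and Foxf1a are neighbours on chromosome 8, with 3.8 and 21.4 kb between their probe sets, and the median SMAD1/5 ratio of all probes on that chromosome was 0.40. The same median was 0.28 on chromosome 11, which holds Foxi1, Foxj1 and Foxn1, and -0.58 on chromosome X, which holds Foxp3. Foxl2, a gene of the ovary, averaged -0.59 ± 1.13 with SMAD1/5.

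The FoxD genes averaged -0.60, -0.57, -0.49 and -0.14 with SMAD1/5 for Foxd1, Foxd2, Foxd3 and Foxd4, where the median gene mean was -0.39 over the Fox family and -0.21 over all genes. Foxd3, a factor of embryonic stem cells and neural crest, had a SMAD2 window at -3686 bp (chr4:99044789-99045566) with a ratio of 1.46 ± 1.01 (5 probes, z 2.53). The same window measured -0.10 ± 2.25 with SMAD1/5 and 0.84 ± 1.04 with SMAD4. The SMAD2 immunoprecipitate in it was 0.27 above the mean of the other antibodies, and the SMAD2 input 1.31 below theirs, so the larger part of the difference lay in the input.

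The 3 lowest SMAD4 windows of the family were at Foxb2, Foxc1 and Foxb1. Foxb1, a gene of the hypothalamus, and Foxb2 had lowest SMAD4 windows of -1.32 ± 0.54 (z -2.51) and -1.51 ± 0.27 (z -2.85). The Foxc1 window was at -1.46 ± 0.61 (z -2.76). At Foxc1 the SMAD4 immunoprecipitate differed from the mean of the other antibodies by -0.74 and the input by 0.03. There the larger part lay in the immunoprecipitate. At Foxb2 the differences were -0.12 and 2.01, with the larger part in the input. At Foxb1 they were -0.59 and 0.42, but 1 SMAD1/5 input probe, at -490 bp, stood at 8.17 and raised the mean of the other inputs. With SMAD4 and SMAD2 alone, the Foxb1 immunoprecipitates were -0.41 and 0.04 and the inputs 1.01 and -0.23. Which channel holds the larger part at Foxb1 thus depends on the comparison. Foxb1 also had the fourth highest SMAD1/5 window of the family, at -3486 bp (chr9:69795933-69796711, 5 probes), with 1.81 ± 0.64 with SMAD1/5 (z 1.78), 0.28 ± 0.88 with SMAD2 and -0.69 ± 0.77 with SMAD4.

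Foxn4, which directs cell fates in the retina, was the only Fox gene whose highest window reached a z of 2 with each of the 3 antibodies. These windows were not in 1 place: the SMAD1/5 window lay at 3061 bp and the SMAD2 and SMAD4 windows at 1089 bp. The SMAD1/5 peak z was 2.14, and 1.53 on bright probes only, but 3.93 with normexp background correction. It was 2.40 with the authors' log2 values, 2.21 with the mean input of the 3 antibodies and 2.15 with the trend on the input removed. At 1089 bp past the start (chr5:113494246-113494604) the Foxn4 ratio was 1.08 ± 1.73 with SMAD1/5, 1.30 ± 1.20 with SMAD2 and 1.66 ± 1.22 with SMAD4 (3 probes). There the SMAD4 immunoprecipitate and input differed from the mean of the other antibodies by -0.83 and -1.47, and those of SMAD2 by 0.21 and -0.20. At 3061 bp (chr5:113492453-113492810) the ratios were 2.38 ± 0.55, 1.01 ± 1.04 and 1.27 ± 1.60 (3 probes). In this second window the immunoprecipitates stood at 1.54, 1.28 and 1.53 (centred log2) and the inputs at -0.17, 0.18 and 0.38, and the SMAD1/5 channels differed from the mean of the other antibodies by 0.13 and -0.45. All 3 FoxN genes had a SMAD2 window at a z of 2, and Foxn1, of the thymus epithelium, had the highest SMAD2 mean of the family, 0.66 ± 0.79 (27 probes).

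Foxj1, the master gene of motile cilia, averaged -0.22 ± 1.43, 0.46 ± 0.85 and 0.35 ± 0.91 with SMAD1/5, SMAD2 and SMAD4 and reached a z of 2 with SMAD2 and SMAD4. Foxj2 held the highest SMAD2 window of the family, 1.65 ± 0.71 at 1818 bp (4 probes, z 2.86, chr6:122858400-122859091). The same window measured 1.30 ± 0.34 with SMAD1/5 and -0.13 ± 0.39 with SMAD4. Its SMAD2 immunoprecipitate differed by -0.02 from the mean of the other antibodies and its input by -1.57.

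Foxk1, a factor of muscle progenitors and metabolism, had a window at 2519 bp (chr5:141381371-141381736, 3 probes) that was at once its lowest with SMAD1/5 and its highest with SMAD2. The ratio was -4.81 ± 1.41 with SMAD1/5 (z -3.85), 1.59 ± 1.44 with SMAD2 (z 2.76) and -0.10 ± 1.26 with SMAD4. The immunoprecipitates were alike, at 0.42, 0.58 and 0.26, but the inputs stood at 5.91, -1.10 and 0.47. The SMAD1/5 and SMAD2 extremes at Foxk1 therefore lay in the input channel.

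The FoxO genes, which respond to insulin signalling, had the lowest subfamily median with SMAD1/5, -0.81, with Foxo6 at -1.08 ± 1.92, Foxo1 at -0.81 ± 2.04 and Foxo3a at -0.60 ± 1.67. Foxo6 also had the brightest SMAD1/5 input of the family, 2.27, and at 1096 bp a ratio of -3.95 ± 0.78 (5 probes, z -3.13) with an immunoprecipitate of 0.14 and an input of 4.76. Foxo1 held the lowest SMAD2 window, -2.18 ± 0.32 at -2481 bp (3 probes, z -3.91, chr3:52392382-52392747), against 1.25 ± 0.52 with SMAD1/5 and -0.53 ± 0.51 with SMAD4 in the same place. There the SMAD2 immunoprecipitate differed by 0.04 from the mean of the other antibodies and the input by 2.10. Foxn2 and the mitotic gene Foxm1 followed, with SMAD2 ratios of -1.93 ± 0.84 (z -3.58) and -1.98 ± 1.20 (z -3.55), and inputs 2.09 and 2.19 above the other antibodies'. Their SMAD2 immunoprecipitates differed from the other antibodies' by -0.25 and 1.05, so at Foxm1 both channels were brighter. There 1 SMAD4 input probe, at 4566 bp, stood at -3.57 and lowered the mean of the other inputs.

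The FoxP genes encode mostly repressors, with Foxp3 known from regulatory T cells. Foxp1 held the lowest SMAD1/5 window of the family at 919 bp (chr6:99249649-99250527), where 5 of 5 probes lay between -7.08 and -3.96. The mean was -4.91 ± 1.30 with SMAD1/5 (z -3.93), 0.43 ± 0.58 with SMAD2 and 0.09 ± 0.62 with SMAD4. The immunoprecipitates were -0.11, -0.49 and -0.62, while the inputs were 5.48, -1.01 and -0.59. Foxp1 also had a SMAD4 window at -3531 bp with a ratio of 1.85 ± 0.65 (4 probes, z 3.19), an immunoprecipitate 0.11 above the other antibodies' and an input 1.90 below.

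**Figure D3:**
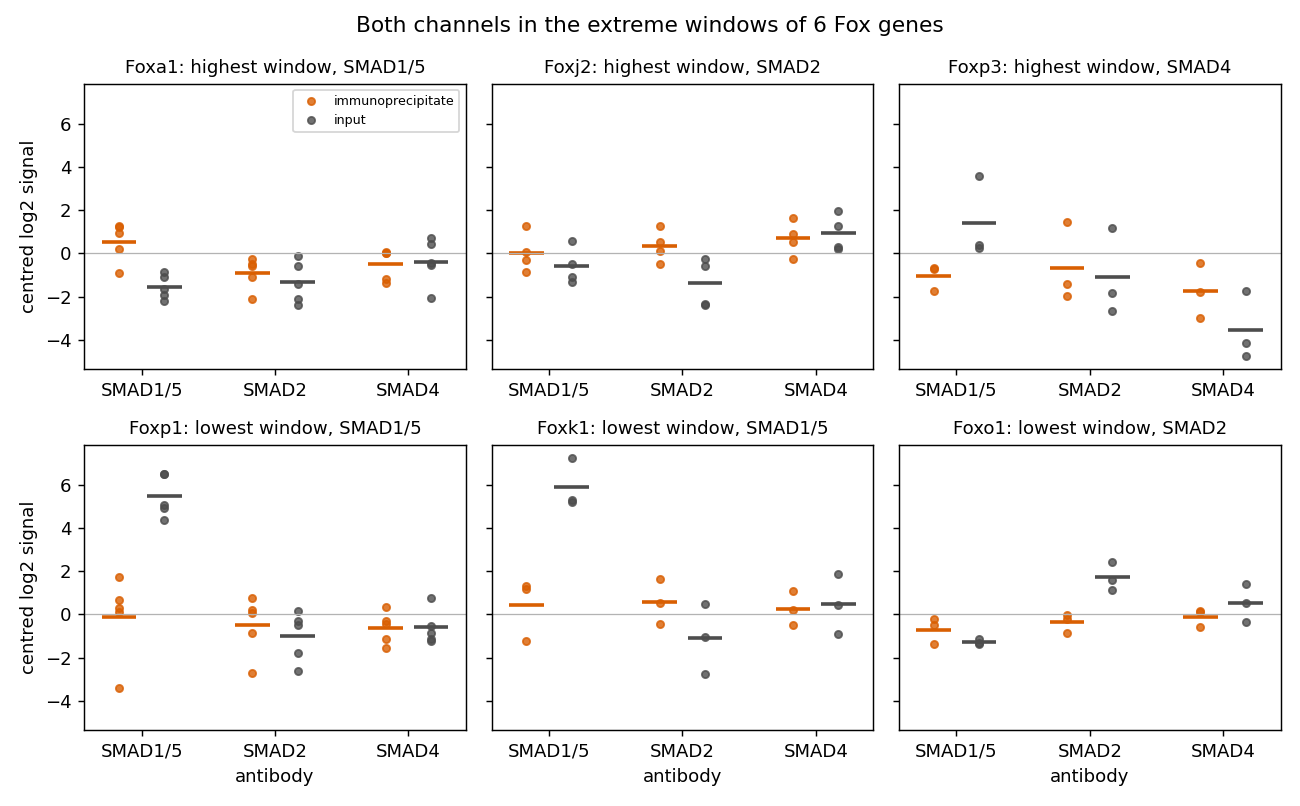
Centred log2 signal of each probe (points) and the window mean (bars) in the immunoprecipitate (orange, left) and the input (grey, right) of each antibody, for 6 extreme windows. At Foxp1 and Foxk1 the SMAD1/5 input stands at means of 5.48 and 5.91 above the array median while the immunoprecipitates lie near 0, and at Foxp3 the SMAD4 input lies at -3.54.

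Foxp3 held the highest SMAD4 window, centred at -224 bp in the promoter it shares with Ppp1r3f (chrX:6012230-6012648). Its 3 probes gave 1.90 ± 1.02 with SMAD4 (z 3.30), -2.01 ± 1.67 with SMAD1/5 and 0.38 ± 0.21 with SMAD2. The SMAD4 immunoprecipitate was at -1.73, which is 0.89 below the mean of the other antibodies, and its input at -3.54, which is 3.69 below. However, 1 SMAD1/5 input probe, at -224 bp, stood at 3.56 and raised the mean of the other inputs. At -585, -330 and -224 bp the SMAD4 inputs were -1.73, -4.75 and -4.13, and the SMAD2 inputs 1.19, -1.82 and -2.68. The SMAD4 z of the highest Foxp3 window was 1.91 with the authors' log2 values, 1.36 with normexp background correction, 1.11 with the mean input of the 3 antibodies and 1.02 with the trend on the input removed, and under each of these Foxn4 was higher, at 2.70, 2.46, 2.62 and 2.29. RefSeq lists 2 starts for Foxp3, and since the builds were not matched it is not known which of them the array's start is, so both promoters are shown with CG in capitals. They hold 6 and 8 CG and lie at chrX:7579426-7579725 and chrX:7580233-7580532 (plus strand) in GRCm38.p6.
Foxp3, first start: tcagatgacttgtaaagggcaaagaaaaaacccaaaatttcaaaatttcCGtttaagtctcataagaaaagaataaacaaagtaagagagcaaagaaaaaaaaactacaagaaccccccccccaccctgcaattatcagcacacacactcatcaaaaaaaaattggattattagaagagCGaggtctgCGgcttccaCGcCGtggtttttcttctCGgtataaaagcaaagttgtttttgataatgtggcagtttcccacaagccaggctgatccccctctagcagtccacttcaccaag
Foxp3, second start: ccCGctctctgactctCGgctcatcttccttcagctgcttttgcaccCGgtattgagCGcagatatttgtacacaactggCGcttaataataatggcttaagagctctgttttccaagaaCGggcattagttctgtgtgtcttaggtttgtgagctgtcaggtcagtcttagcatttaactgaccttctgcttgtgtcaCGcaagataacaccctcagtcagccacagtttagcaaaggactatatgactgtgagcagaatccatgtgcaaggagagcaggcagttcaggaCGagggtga

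Over the whole family the same reading of the channels was made for the window of each gene with the lowest SMAD1/5 ratio. The input differed more from the other antibodies than the immunoprecipitate did in 31 of 34 Fox genes (91.2%, against 71.6% of all genes), and the SMAD1/5 input was above the others by a median of 2.54, against 1.88 over all genes. For the highest windows the count was 29 of 35 with SMAD2 (82.9%, against 72.6%) and 26 of 35 with SMAD4 (74.3%, against 82.1%). With SMAD1/5 it was 15 of 34 (44.1%, against 45.8%). For the lowest SMAD4 windows it was 20 of 35 (57.1%, against 67.8%), and an immunoprecipitate at least 1 below the others was found in 6 of 35 (17.1%, against 6.93%). Among these windows the SMAD4 input differed from the others by -1.35 at Foxd2 and Foxe1, -1.28 at Foxp2, -0.72 at Foxa1 and -0.01 at Foxi2. An immunoprecipitate that low was found in the lowest SMAD1/5 window of 8 of 34 genes (23.5%, against 30.8%). With SMAD2 it was found in 0 of 35 (0.0%, against 4.48%). An immunoprecipitate at least 1 above the others occurred in the highest window of Foxa1 and Foxd4 with SMAD1/5 (5.88%, against 22.4% of all genes), of 0 Fox genes with SMAD2 (0.0%, against 9.16%), and of 3 with SMAD4 (8.57%, against 5.33%), Foxj1 and Foxo3a among them. Since windows were picked by the ratio, these are descriptions of where the extremes lie.

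Between 500 and 2000 bp past the start the SMAD1/5 ratio averaged -0.73 ± 1.06 over 34 Fox genes (SD over genes), against -0.16 ± 1.02 over all genes, and 27 of 34 Fox genes (79.4%) were below 0, against 52.6% of all genes. The extremes were Foxp1 at -3.60 and Foxa1 at 1.61. The SMAD1/5 input there was 1.43 in Fox genes and 0.54 in all genes, and the immunoprecipitate 0.14 and -0.18, so both channels were brighter at Fox genes and the input more so. With SMAD2 the ratio was 0.06 ± 0.37, against 0.02 ± 0.52, and with SMAD4 0.04 ± 0.41, against 0.14 ± 0.55. The stretch was chosen with the profile known, and the part of probe brightness in the difference was not tested.

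**Figure D4:**
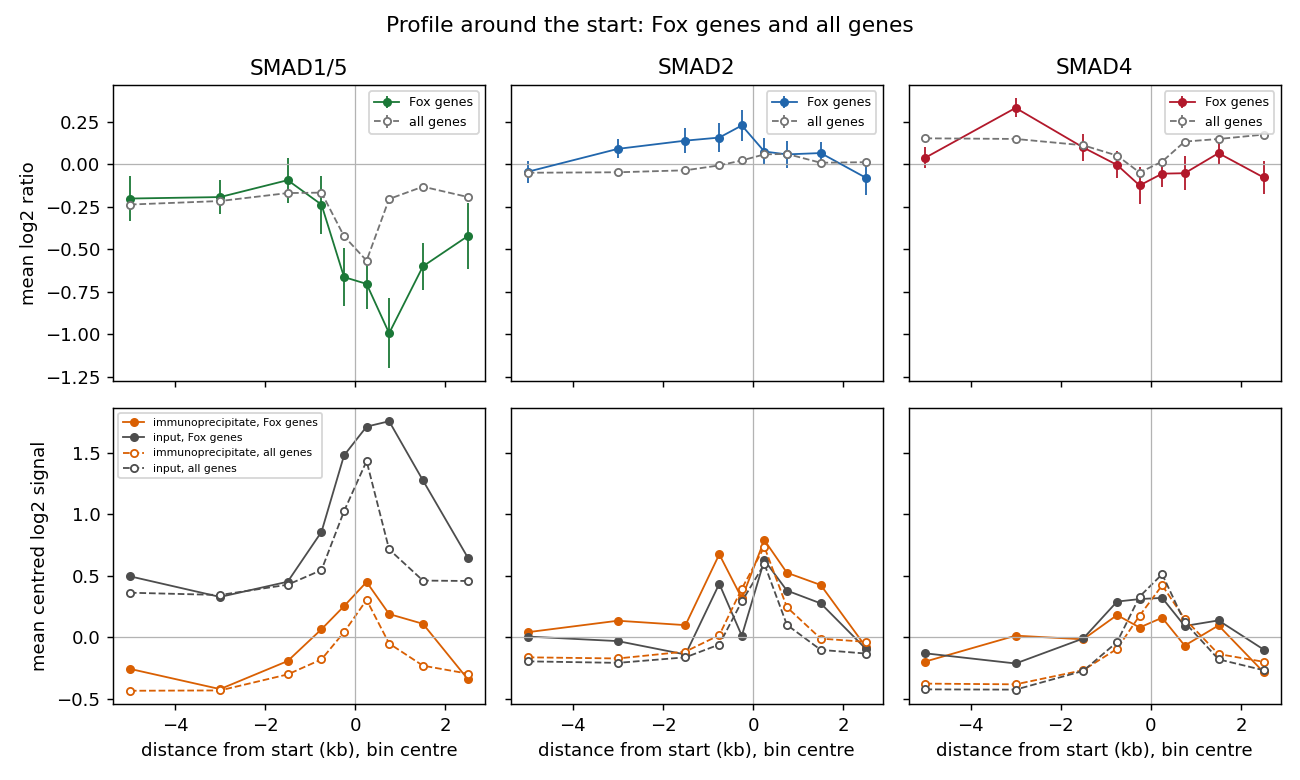
Upper row: mean log2 ratio of all probes in a distance bin (bars: SE over probes) for Fox genes (filled, solid) and all genes (open, dashed) with SMAD1/5, SMAD2 and SMAD4. The bars take probes of 1 gene as independent: between 500 and 1000 bp the Fox SMAD1/5 bar is 0.20, while the SD over 34 genes is 1.57. Lower row: centred log2 signal of the immunoprecipitate (orange) and input (grey); the SMAD1/5 ratio of Fox genes is lowest between 500 and 1000 bp past the start, at -0.99, against -0.20 for all genes, where the Fox input is at 1.75.

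Averaged over all probes of a gene, 30 of 35 Fox genes were below 0 with SMAD1/5 (85.7%, against 67.2% of all genes), 10 with SMAD2 (28.6%, against 48.8%) and 13 with SMAD4 (37.1%, against 36.9%). The medians of these gene means were -0.39, 0.07 and 0.05 for Fox genes, against -0.21, 0.01 and 0.10 for all genes. With SMAD1/5 the Sox genes (-0.37) and the Pax, Lhx, Irx and related genes (-0.33) lay close to the Fox value of -0.39, and the Hox genes were at -0.19. The median SMAD1/5 input was 0.91 in Fox genes, 0.70 in Sox, 0.60 in Hox, 0.89 in Pax, Lhx, Irx and related genes and 0.56 in all genes. Across the 35 genes the mean ratios of SMAD1/5 and SMAD2 correlated with r = 0.36 (rho = 0.37), those of SMAD2 and SMAD4 with r = 0.37 (rho = 0.36) and those of SMAD1/5 and SMAD4 with r = -0.03 (rho = 0.02). The immunoprecipitate signals correlated with r of 0.75, 0.91 and 0.81 for the same pairs, and the inputs with 0.69, 0.72 and 0.45. Over all genes the r of the ratios was 0.10, 0.20 and 0.01 for these pairs. For the immunoprecipitates it was 0.78, 0.93 and 0.83, and for the inputs 0.64, 0.78 and 0.61. The genes share arrays, probes and base composition across antibodies, so these describe the measurements and not shared binding.

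Of 16 Sox, 33 Hox and 27 Pax, Lhx, Irx and related genes, Irx6 was enriched with SMAD4 and Irx1 was low with SMAD1/5, and no Sox or Hox gene was called. A highest SMAD1/5 window at a z of 2 was found in 5.71% of Fox genes, against 18.8% of Sox, 18.2% of Hox and 11.1% of the Pax, Lhx, Irx and related genes. With SMAD2 the shares were 31.4%, against 25.0%, 15.2% and 25.9%, and with SMAD4 37.1%, against 37.5%, 27.3% and 33.3%.

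Genes that act on forkhead proteins or are controlled by them were read from fixed lists. Of 20 upstream and partner genes, such as the kinases that phosphorylate FoxO proteins, 19 were measured and 0 were enriched or low with any antibody, with highest windows at Skp2 with SMAD1/5 (z 2.35), Ywhae with SMAD2 (z 2.98) and Cdk2 with SMAD4 (z 3.26). Of 24 forkhead target genes 22 were measured. G6pc, an enzyme of glucose production and a FoxO target, was the 1 of these 22 enriched with SMAD4, where 2.47% of all genes were. Its SMAD4 window lay at 494 bp (2.42 ± 1.01 over 3 probes, z 4.24), where SMAD2 had its lowest window of the gene (z -2.08). The G6pc peaks with SMAD1/5 (z 2.10) and SMAD2 (z 0.10) lay upstream of the start, at -5033 and -3111 bp. Birc5 and Sod2, which guard against cell death and oxidation, had a low SMAD1/5 window (z -4.01 and -4.26), which makes 2 of 22, against 2.61% of all genes. These windows lay far upstream, at -3289 bp for Birc5 and -9921 bp for Sod2, with 3 probes each.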

How the data were processed

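ChIP-chip was measured on 6 two-colour arrays, 2 per antibody, grouped by the antibody in their titles. For every spot the deposited scanner output holds the intensity of both channels. Agilent Feature Extraction subtracted background and normalised the dyes to give the processed intensity, per the file headers, version 9.1.3.1 with a copy number protocol for SMAD1/5 and SMAD2 and version 9.5.3.1 with a ChIP protocol for SMAD4. Other deposited columns are flags of 0 or 1 for outlying, saturated or bright spots, set by the same program (per the file headers). The authors also deposited log2 values, for which the submitters' processing notes name limma. They correlated with the scanner log2 ratio at r of 0.74 to 0.95 with slopes of 0.44 to 0.90, so their direction is immunoprecipitate over input, while scale and centring are unknown; their medians were 0.08 and -0.01 (SMAD1/5), 0.05 and 0.04 (SMAD2) and -0.0047 and -0.0022 (SMAD4).

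The log2 ratio of the processed signals was centred on each array's median, without loess. Spots with an outlier flag were left out, 16 Fox spots with SMAD2 and 0 with the other antibodies. Saturated spots were kept. Windows and calls follow the rules in the results, computed with numpy 2.4.6 and pandas 2.3.3, and the code was tested on simulated data. The normexp alternative used limma 3.58.1 with an offset of 50. Gene starts, names and positions are those of the array annotation, with no genome build given in the sources used here. There were 0 columns of other samples.

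Every Fox gene could be named. Given in full were, per antibody, the 4 with the highest and the 3 with the lowest window, any called gene, and genes at a z of 2 with all 3 antibodies. Of the genes this rule gives in full, 1 is not reported here, though it stays in the counts. Genes of the upstream and target lists were named where called or highest of their list. The members, lists and rules were chosen with earlier results of these data known.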

Additional observations from a re-analysis of the deposited data

How the results depend on the processing

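No paired analysis was possible because each antibody has 1 biological replicate and the array numbers that antibodies share mark different probes of the promoter set, not replicates; no replicate was left out for the same reason. The cause of each change below was not tested.

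The count of 0 enriched Fox genes moved under 2 of the alternatives. Normexp background correction called 1 with SMAD1/5 (Foxk1, where 5.18% of all genes were called), and a z of 3 called 1 with SMAD4 (Foxp1, 10.6% of all genes). Low SMAD1/5 windows numbered 5 with the authors' log2 values (7.69% of all genes), 6 with normexp (16.7%) and 5 at a z of 3 (10.0%). Foxk1, Foxo6 and Foxp1 were in each of these 3 lists. Low SMAD2 windows numbered 2 with the mean input of the 3 antibodies (Foxn2 and Foxp1, 3.1% of all genes) and 3 at a z of 3 (5.03%).

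The share of Fox genes with a highest window z of at least 2 changed as follows. With SMAD1/5 it was 37.1% with normexp (43.6% of all genes), 14.3% with the authors' log2 values (15.1%), 14.3% with the trend on the input removed (10.8%), 11.4% with the mean input (18.8%), 2.86% on bright probes only (3.12%) and with a half-width of 250 bp (2.84%), and 0.0% within 1000 bp of the start (1.77%). It was 5.71% with a half-width of 1000 bp (9.46%). Without joined names, over 34 Fox genes, it was 5.88% (5.50%). With SMAD2 it was 20.0% with the authors' log2 values (9.19%) and with a half-width of 1000 bp (14.5%), 14.3% on bright probes only (12.2% of all genes), 8.57% with the mean input (10.7%), 11.4% with the trend on the input removed (6.83%) and 0.0% within 1000 bp of the start (6.21%). It was 28.6% with normexp (13.6%), 34.3% with a half-width of 250 bp (16.6%) and 32.4% without joined names (17.2%). With SMAD4 it was 17.1% with the mean input (11.8%), 14.3% with the trend removed (16.4%) and 2.86% within 1000 bp of the start (12.9%). It was 25.7% with the authors' log2 values (30.6%) and with a half-width of 1000 bp (30.8%), and 28.6% with normexp (26.8%). A half-width of 250 bp gave 45.7% (39.4%), bright probes only 37.1% (39.7%), and leaving out joined names 35.3% (38.5%). With normexp the highest SMAD1/5 z was 1.13 for Foxa1 (2.46 as reported) and 4.45 for Foxk1 (0.76). The highest SMAD4 z of Foxp1, 3.19, was 1.16 with normexp, and the highest SMAD2 z of Foxk1, 2.76, was 1.01 on bright probes only. Of 240 highest-window z values of the 16 genes given in full, 29 moved by at least 1.

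With single arrays, the spread between experiments could not be measured. On the SMAD1/5 arrays the spread of the windows below the median puts a z of 4 at an 18.0-fold to 24.4-fold ratio. The sources of that spread were not tested.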
